A study of Mus musculus with 17 samples.

Results

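Alternative macrophage activation was described by 9 genes, chosen by name: the receptors Mrc1, Mgl2 and Clec10a, the secreted proteins Retnla and Chil3, the chemokines Ccl24 and Ccl17, and the receptor chain Il4ra with the transcription factor Irf4. They were 9 of 17555 genes listed over 3 tables of RPKM values (counted reads per kilobase of gene and per M, or megaread, of the library), 1 per population: tumor cells, and the macrophages that the study abbreviates as TRMs and MDMs. All 9 were listed in TRMs, and 8 each in tumor cells and MDMs, where Clec10a was not listed. The genes were named with earlier results of these data known, so their values are a description and carry no test of their own.

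KL and KLG4 mice shared their tumor-forming alleles, a floxed Lkb1 allele (Lkb1fl/fl) among them, and KLG4 mice were Gpx4m/m in addition. Mice of both genotypes had received an adenovirus expressing Cre (Ad-Cre) through the nose, with collection after 10 weeks, and tamoxifen. In KLG4 mice tamoxifen removes exons of Gpx4, a glutathione peroxidase that reduces lipid peroxides, through a second recombinase that is present only in cells that had seen Cre. The study places this rearrangement in the EpCAM-positive tumor cells and not in immune cells. Each population was profiled in 2 KL and 2 KLG4 libraries, 12 in all. Tumor cells had been sorted as CD45-negative, CD31-negative, EpCAM-positive cells, a gate that removes leukocytes and endothelium, and the gates for TRMs and MDMs are not given in the sources used here. Each tumor cell group comprised 2 mice. Whether each library came from a mouse of its own is not stated for any population, so spreads and p-values cover differences between libraries that may be technical.

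Interleukin-4 and interleukin-13 bind receptors that contain the Il4ra chain, and signal through Janus kinases to the transcription factor STAT6, which switches on the genes of alternative activation. In the lung this program is known from allergic inflammation, worm infection and repair. Several of its genes are not exclusive to it: resident alveolar macrophages express Chil3 and Mrc1 at rest, airway epithelium can express Retnla and Chil4, and dendritic cells express Ccl17, Irf4 and Mgl2.

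Depth, recovered from the RPKM steps, was 15.9 to 36.6 M counted reads in tumor cells, 9.14 to 26.8 M in TRMs and 10.4 to 26.1 M in MDMs. Gpx4 was at 95.0 and 76.8 RPKM in KL and 56.4 and 61.9 RPKM in KLG4 tumor cells, counted over all its exons, those that are not removed included. TRMs had 89.8 and 88.2 RPKM in KL and 53.8 and 57.0 RPKM in KLG4, and MDMs 44.9 and 71.3 RPKM in KL and 93.6 and 97.7 RPKM in KLG4. Mitochondrial genes took 22.3% to 31.5% of reads in the KL TRM libraries and 2.95% to 5.78% in the KLG4 ones. Their share was 7.38% and 8.26% in KL and 14.8% and 14.7% in KLG4 tumor cells, the opposite direction, and 2.75% and 7.31% in KL and 0.921% and 1.33% in KLG4 MDMs. The 2 KL TRM libraries expressed the Y-linked gene Eif2s3y (12.3 and 14.7 RPKM) with Xist at 0.257 and 0.501 RPKM, whereas the KLG4 TRM libraries had Eif2s3y listed at 0 and Xist at 18.3 and 20.2 RPKM, so sex and genotype cannot be told apart in TRMs. In MDMs, Xist was at 21.8 and 0.839 RPKM in the KL libraries and at 19.4 RPKM in both KLG4 libraries. In tumor cells both genes were present in each of the 4 libraries, Eif2s3y between 7.27 and 9.26 RPKM with Xist between 4.17 and 6.18 RPKM. Such libraries held RNA of both sexes and so did not come from a single mouse. Spreads and p-values of the tumor cell table therefore do not measure differences between single mice. Of the 6 replicate pairs, that of the KLG4 tumor cells was the closest, with a chi-square per gene of 3.28 against 28.9 to 131.6.

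The labelled cell types were checked against marker lists. The TRM libraries had all 8 macrophage markers at 1 RPKM or more and 8 to 9 of 10 alveolar macrophage markers. All 8 macrophage markers also reached 1 RPKM in every MDM library, with a summed level of 1861 to 3191 RPKM. The neutrophil list was higher still in MDMs: all 10 of its genes were listed, with a summed level of 10743 to 23752 RPKM, against 86.3 to 237 RPKM in TRMs, and Ly6c2, a monocyte gene, did not pass 0.980 RPKM. The tumor cell libraries carried surfactant and club cell genes, and in KLG4 each immune and stromal list tested had a higher sum in them. KL replicate 2 of the MDMs stood apart from the other 3 libraries of that table, with the highest macrophage sum (3191 against 1861 to 1975 RPKM), the lowest neutrophil sum (10743 against 18227 to 23752 RPKM) and the highest alveolar type 2 sum (399 against 42.7 to 165 RPKM). The part of these other cells in the values below was not tested. Fewer cells of a type and less RNA per cell cannot be told apart in bulk libraries.

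**Figure D1:**
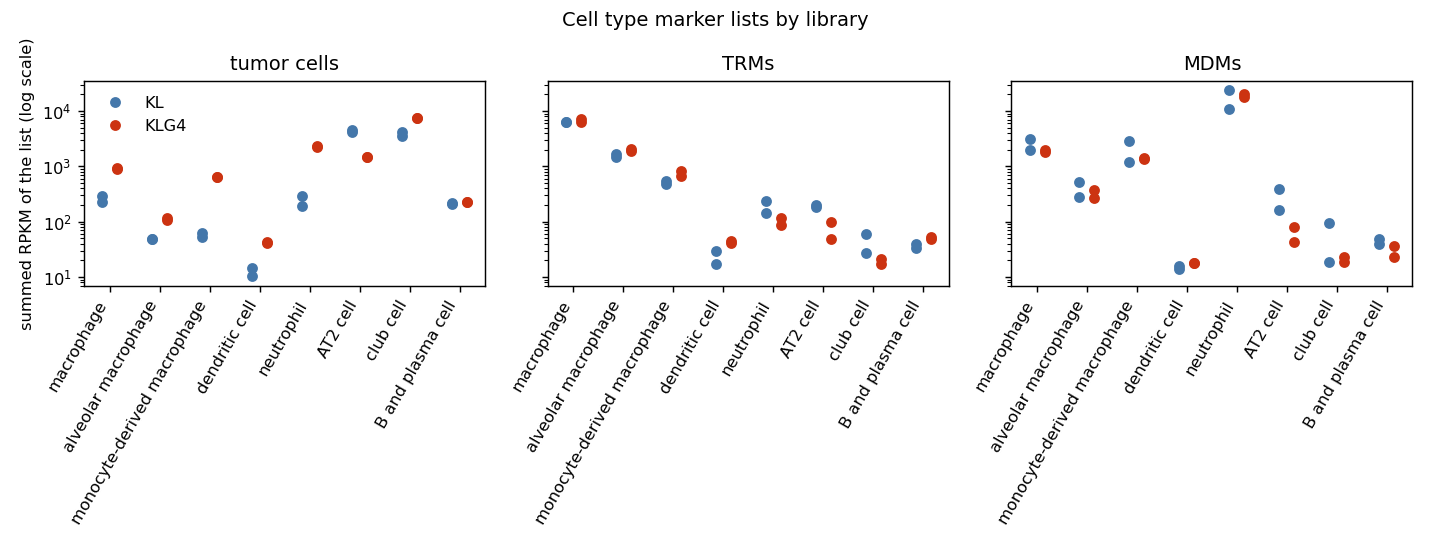
Summed RPKM of 8 cell type marker lists (log scale) in each KL (blue) and KLG4 (red) library of the 3 populations. In tumor cells the macrophage list stood at 227 and 289 RPKM in KL and 913 and 950 RPKM in KLG4, and in MDMs the neutrophil list was above the macrophage list in every library.

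Sequence upstream of the annotated start is shown for 4 genes whose levels set them apart: Retnla, which was highest in tumor cells, Ccl17, the chemokine highest in TRMs, and Chil3 with its near copy Chil4, whose ratio differed between tumor cells and macrophages. RefSeq windows on GRCm38.p6 matched 7 of the 9 genes (Mrc1, Mgl2, Retnla, Chil3, Ccl17, Il4ra and Irf4) and Chil4. Each sequence is the 250 bases before the RefSeq start, 5′ to 3′ on the gene's strand. Capitals mark TTCNNNGAA, a palindromic motif that STAT factors bind, and TATAAA, the core of the TATA box, both searched on both strands. The form with 4 bases between TTC and GAA, a spacing tied to STAT6, was not marked. The Retnla window holds that form, as ttcacaagaa. The windows lie at chr16:48842359-48842608 on the plus strand (Retnla), chr8:94810203-94810452 on the plus strand (Ccl17), chr3:106167565-106167814 on the minus strand (Chil3) and chr3:106219480-106219729 on the minus strand (Chil4).
Retnla: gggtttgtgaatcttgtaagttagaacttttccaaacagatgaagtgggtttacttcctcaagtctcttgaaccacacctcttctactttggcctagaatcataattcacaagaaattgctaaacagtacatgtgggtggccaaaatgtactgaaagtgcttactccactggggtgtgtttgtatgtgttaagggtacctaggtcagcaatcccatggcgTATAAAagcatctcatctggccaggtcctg
Ccl17: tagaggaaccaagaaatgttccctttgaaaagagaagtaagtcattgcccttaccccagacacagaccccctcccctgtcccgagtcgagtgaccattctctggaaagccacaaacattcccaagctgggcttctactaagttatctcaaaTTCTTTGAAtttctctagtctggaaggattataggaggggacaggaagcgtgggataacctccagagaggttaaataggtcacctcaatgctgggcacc
Chil3: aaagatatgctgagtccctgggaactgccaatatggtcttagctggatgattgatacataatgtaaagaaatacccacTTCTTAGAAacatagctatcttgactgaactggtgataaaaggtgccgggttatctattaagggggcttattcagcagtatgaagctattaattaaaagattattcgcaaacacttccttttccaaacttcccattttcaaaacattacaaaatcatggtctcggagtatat
Chil4: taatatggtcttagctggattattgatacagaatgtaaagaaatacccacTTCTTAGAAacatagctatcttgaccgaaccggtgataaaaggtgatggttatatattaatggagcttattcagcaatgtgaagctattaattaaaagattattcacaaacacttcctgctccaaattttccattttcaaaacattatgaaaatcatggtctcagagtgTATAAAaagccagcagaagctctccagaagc

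TTCNNNGAA occurred 172 bases before the start of Chil3, 200 bases before that of Chil4 and 99 bases before that of Ccl17, and in 7.02% of the 32851 RefSeq windows of the same length. TATAAA was found at 30 bases before the start in Retnla, 26 in Irf4 and 31 in Chil4, and in 12.4% of windows. The Chil3 window ends where it lines up with the TATAAA of Chil4, so whether Chil3 holds these letters is not shown. The distances of TTCNNNGAA in Chil3 and Chil4 likewise depend on where the RefSeq start was placed. The Retnla and Chil4 windows reach into the gene coordinates given below. The windows of Mrc1, Mgl2 and Il4ra held none of these letters. The Chil3 and Chil4 windows aligned over 221 bases and were identical at 202 of them (91.4%). A match of letters is a description and not a binding site.

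In tumor cells, 7 of the 8 listed genes were higher in KLG4 than in KL and Il4ra was lower. The median difference over the 8 genes was 3.74 on the log2(RPKM + 0.1) scale, or 3.67 over the 7 without Ccl24, which was listed at 0 in both KL libraries. That median depended on low values: it was 1.87 with a pseudocount of 1 and 1.86 over the 5 genes with a mean of at least 5 RPKM. The median over all 13770 genes tested was -0.09. All 8 genes passed the filter of at least 1 RPKM in 2 libraries. The 7 higher genes were called, that is, had an adjusted p under 0.05 (limma), as did 20.6% of all tested genes in that direction, and the same 7 had both KLG4 libraries above both KL libraries, as did 32.5% of all tested genes. Il4ra had both below, as did 42.2%. Without either KLG4 library only 5 of the 8 passed the filter, and 4 of them were called higher. Without either KL library all 8 were called, Il4ra as lower. The genes had been named with this contrast known, so nothing is read from these counts.

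In TRMs, all 8 genes that passed the filter were higher in KLG4, with a median difference of 1.40, or 1.02 above the median of all 10990 genes tested, which was itself 0.38. Marker lists moved with them: the alveolar type 2 list summed to 188 and 202 RPKM in KL and 49.2 and 96.9 RPKM in KLG4, and the neutrophil list to 237 and 146 RPKM in KL and 119 and 86.3 RPKM in KLG4. Of the 8 macrophage markers 6 were above in both KLG4 libraries, with a median difference of 0.85, although the sum of the list overlapped. Clec10a did not pass the filter. Both KLG4 libraries were above both KL libraries for all 8, as for 53.7% of all tested genes. At the threshold used in the study (2-fold or more, with an unadjusted p under 0.05), all 8 passed upwards, as did 12% of all tested genes, and 4 of them (Ccl17, Ccl24, Chil3 and Mrc1) had an adjusted p under 0.05, as did 1.36%. The number called depended on the scaling, the filter, the pseudocount, the trend and single libraries. It was 6 and 1 with pseudocounts of 1 and 0.01, 1 without a filter, 7 of the 7 that had a mean of 5 RPKM, and 0 without a trended variance. The number was 1 after quantile scaling and 0 after TMM scaling (by trimmed means of gene ratios) or scaling to reads outside mitochondrial genes, with 5 to 6 of the 8 still past the threshold of the study and all 8 still higher in KLG4. It was 1 without KL replicate 1, 6 without KL replicate 2, 8 without KLG4 replicate 1 and 5 without KLG4 replicate 2.

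In MDMs, 7 genes passed the filter, 6 were higher in KLG4 and Mrc1 was lower, with a median difference of 0.69 beside 0.02 for all 10475 genes tested. None had an adjusted p under 0.05 and neither had any gene of the table (0%), of which 706 (6.74%) had an unadjusted p under 0.05. Ccl24 and Retnla passed the threshold of the study upwards, as did 1.03% of all tested genes. Both KLG4 libraries were above both KL libraries for 4 genes, Ccl24, Retnla, Chil3 and Il4ra, as for 25.4% of all tested genes. Without KL replicate 1, 2592 genes of the table were called, among them Ccl24 and Retnla (higher) and Mrc1 (lower), with the lone KL library assumed to vary like the KLG4 pair. Whether TRMs and MDMs differ in their response was not tested, since the tables had been normalized separately.

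**Figure D2:**
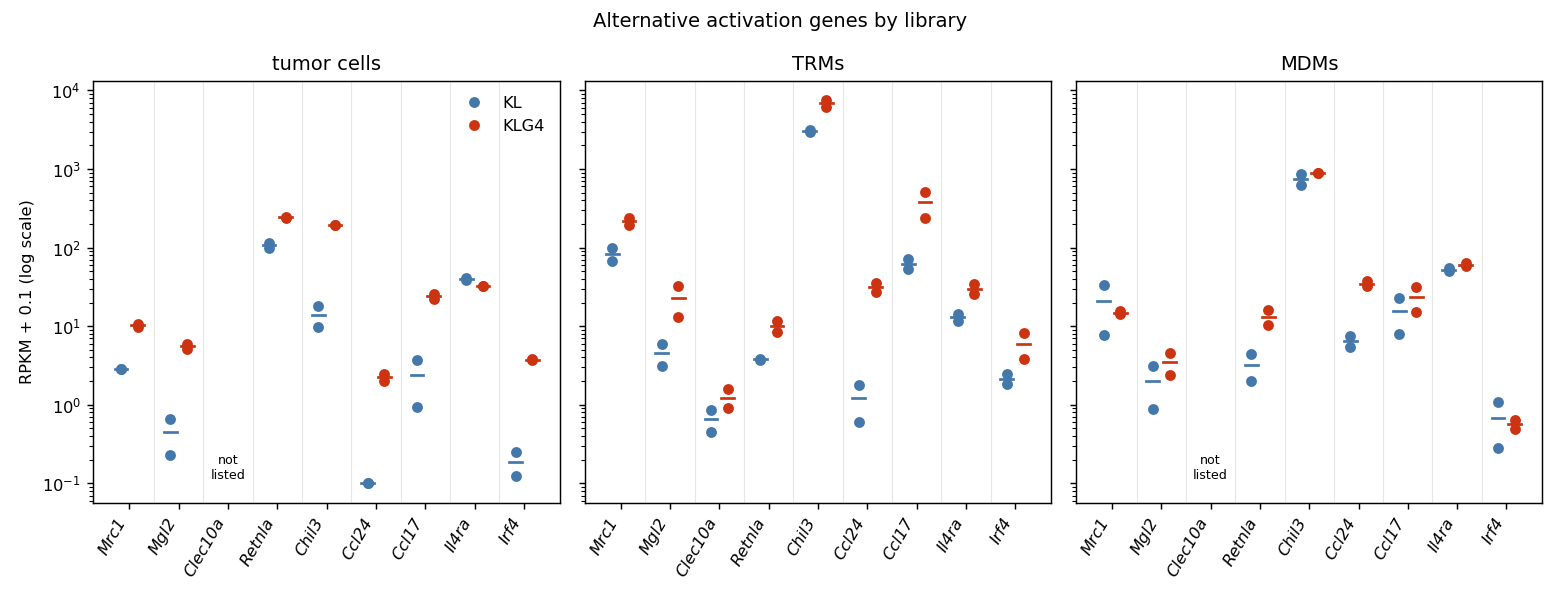
RPKM + 0.1 (log scale) of the 9 genes in each KL (blue) and KLG4 (red) library, with a bar at the mean of each pair, in tumor cells, TRMs and MDMs. Chil3 led in both macrophage populations, Retnla and Chil3 in KLG4 tumor cells, and Ccl24 was listed at 0 in the KL tumor cell libraries.

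**Figure D3:**
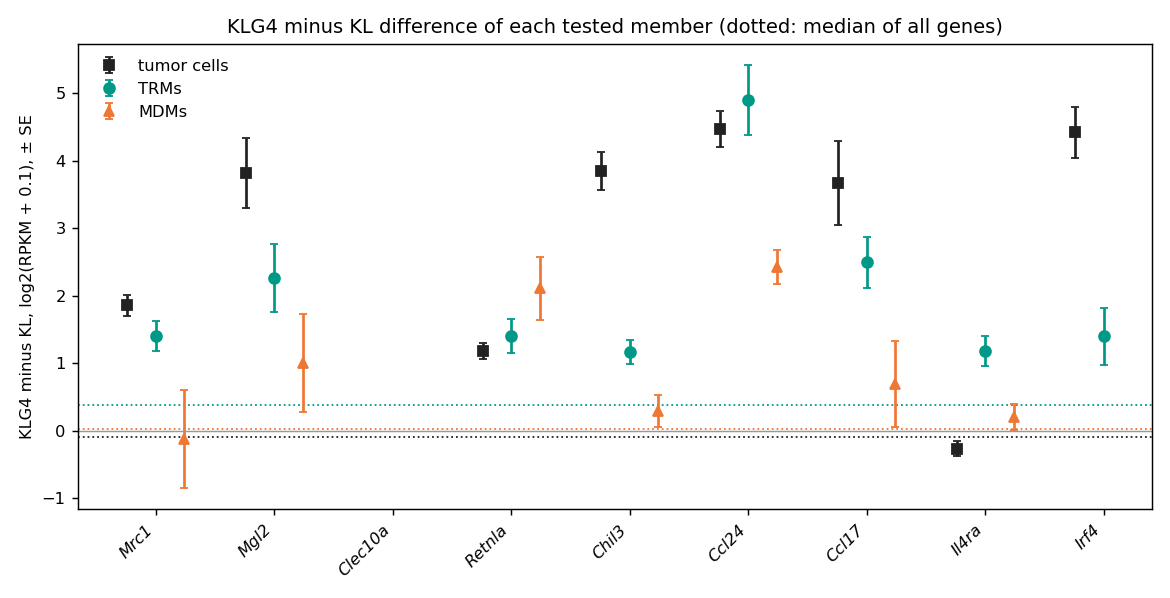
Difference KLG4 minus KL on log2(RPKM + 0.1), with its SE from the fit over the whole table, for each gene that passed the filter in tumor cells (squares), TRMs (circles) and MDMs (triangles). Dotted lines mark the median of all tested genes, at -0.09, 0.38 and 0.02, and the points of Il4ra lie on both sides of 0.

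Of the receptors, Mrc1 (chr2:14229392-14332057, plus strand, a gene that overlaps the microRNA gene Mir511) encodes the mannose receptor, which takes up glycoproteins and microbial sugars. In TRMs Mrc1 was at 68.3 and 97.9 RPKM in KL and at 241 and 194 RPKM in KLG4, so the genotypes did not overlap. The difference was 1.40 ± 0.23 (log2, SE), or 1.02 above the median of all genes. In MDMs Mrc1 was at 7.58 and 33.8 RPKM in KL and 15.4 and 14.02 RPKM in KLG4. Here the KLG4 pair lay between the 2 KL libraries, and the difference was -0.12 ± 0.73. That value turned to 0.95 without KL replicate 2, the library that stood apart in its marker lists, and to -1.20 without KL replicate 1. Tumor cells held 2.72 RPKM in both KL libraries and 10.7 and 9.62 RPKM in KLG4.

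Mgl2 (chr11:70130329-70137550) and Clec10a (chr11:70156197-70170834) are neighbours on the plus strand and encode galactose-type lectins of macrophages and dendritic cells. Mgl2 in TRMs was at 3.06 and 5.85 RPKM in KL and at 13.2 and 32.7 RPKM in KLG4. The KLG4 libraries lay above the KL ones but differed from each other by more than the KL libraries did, and the difference between genotypes was 2.27 ± 0.50. In tumor cells Mgl2 was at 0.130 and 0.568 RPKM in KL and 5.90 and 5.01 RPKM in KLG4. The MDM libraries overlapped, with 0.772 and 3.04 RPKM in KL and 2.31 and 4.44 RPKM in KLG4. Clec10a was low in TRMs, with 0.345 and 0.755 RPKM in KL and 0.799 and 1.47 RPKM in KLG4. Sequence shared by these neighbouring copies may make the assignment of reads between them uncertain.

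Alternative and classical activation use the amino acid arginine differently, so genes of its metabolism were read beside the members. Nos2, the inducible nitric oxide synthase, stayed at or below 0.787 RPKM in TRMs, whereas the MDM libraries had it at 44.4 and 1.11 RPKM in KL and 10.8 and 13.1 RPKM in KLG4. Of the 13 tested genes of arginine and polyamine metabolism, 1 passed an adjusted p of 0.05 in TRMs, beside 1.36% of all tested genes in that direction: Slc7a2, a transporter of cationic amino acids, was higher in KLG4 (31.9 and 41.1 RPKM against 105 and 91.6 RPKM, 1.44 ± 0.19, adjusted p = 0.0435). None of 13 passed in MDMs by limma, and 0 had an unadjusted p under 0.05. In tumor cells 4 of 13 rose (Slc7a2, Ass1, Gatm and Odc1) and Sms, spermine synthase, fell by 0.58 ± 0.13 (adjusted p = 0.0207), beside 20.6% and 19.6% of all tested genes.

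Chil3 (chr3:106147554-106167564, minus strand) encodes Ym1, a secreted chitinase-like protein that lacks chitinase activity. It had the highest level of the 9 genes in TRMs, at 2953 and 3150 RPKM in KL and 7512 and 6236 RPKM in KLG4, a difference of 1.17 ± 0.18 and 0.79 above the median of all genes. That difference was 2.30 after quantile scaling, 0.79 after TMM scaling and 0.77 after scaling to reads outside mitochondrial genes. The MDM levels were 619 and 853 RPKM in KL and 891 and 892 RPKM in KLG4, a difference of 0.29 ± 0.24, so that the gap between genotypes was smaller than that between the KL libraries, and it was 0.06 without KL replicate 1, 0.53 without KL replicate 2 and 0.64 after quantile scaling. In tumor cells Chil3 was at 9.76 and 17.8 RPKM in KL and 191 and 193 RPKM in KLG4, a difference of 3.85 ± 0.28.

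Its neighbour Chil4 (chr3:106201490-106219507, minus strand) encodes Ym2, and reads of these near-identical genes can be assigned to either. The ratio of the pair was higher in every tumor cell library than in any macrophage library. In the 8 macrophage libraries Chil4 was at 0.376 to 7.33 RPKM, which was 0.0378% to 0.116% of the Chil3 value of the same library. In tumor cells Chil4 was at 1.20 and 2.17 RPKM in KL and 113 and 117 RPKM in KLG4, a difference of 6.06 ± 0.27 (adjusted p = 0.000183). That was 12.3% and 12.2% of Chil3 in KL and 59.4% and 60.4% in KLG4.

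Retnla (chr16:48842551-48844461, plus strand) encodes RELM-alpha, a secreted cysteine-rich protein of type 2 inflammation. It was the only member with its highest levels in tumor cells, at 99.7 and 116 RPKM in KL and 240.0 and 247 RPKM in KLG4, a difference of 1.18 ± 0.12. The TRM libraries had 3.68 and 3.66 RPKM in KL and 8.37 and 11.7 RPKM in KLG4 (1.41 ± 0.25). The MDM libraries had 4.32 and 1.93 RPKM in KL and 10.4 and 15.9 RPKM in KLG4 (2.11 ± 0.47). The KLG4 libraries were above the KL libraries in each population, and the TRM and MDM ranges touched within each genotype. The mean level of Retnla in tumor cells was 2934% of that in TRMs in KL and 2433% in KLG4.

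Ccl24 (chr5:135569937-135573049, minus strand) encodes eotaxin-2, which attracts eosinophils through CCR3. TRMs had 1.70 and 0.507 RPKM of Ccl24 in KL and 27.0 and 35.7 RPKM in KLG4, the largest difference among the members there (4.90 ± 0.52). MDMs had 5.41 and 7.44 RPKM in KL and 37.0 and 32.4 RPKM in KLG4 (2.43 ± 0.25). The KLG4 levels of TRMs and MDMs overlapped, while the KL level was lower in TRMs than in MDMs. In tumor cells Ccl24 was listed at 0 in both KL libraries and at 1.93 and 2.33 RPKM in KLG4. Its receptor gene Ccr3 was listed in MDMs only, at 0.165 to 0.481 RPKM.

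Ccl17 (chr8:94810453-94812036, plus strand) encodes TARC, which attracts T cells through CCR4. Its levels in TRMs were 71.2 and 53.4 RPKM in KL and 235 and 515 RPKM in KLG4 (2.49 ± 0.38). In MDMs the genotypes overlapped, at 23.0 and 7.87 RPKM in KL and 15.002 and 31.8 RPKM in KLG4. The difference of 0.69 ± 0.64 there became -0.07 without KL replicate 2 and 1.46 without KL replicate 1. In tumor cells it was at 0.850 and 3.67 RPKM in KL and 22.4 and 25.7 RPKM in KLG4 (3.67 ± 0.62). The KLG4 tumor cell level lay within the range of the KLG4 MDM libraries. The receptor gene Ccr4 was not listed in any table.

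Irf4 (chr13:30749226-30766976, plus strand) encodes a transcription factor that alternative activation induces and that dendritic and plasma cells also need. Its TRM levels were 1.74 and 2.37 RPKM in KL and 3.77 and 8.05 RPKM in KLG4 (1.40 ± 0.42, or 0.86 without KLG4 replicate 2). In MDMs it did not pass the filter, at 0.183 and 0.981 RPKM in KL and 0.391 and 0.546 RPKM in KLG4. In tumor cells it was at 0.0232 and 0.147 RPKM in KL and 3.57 and 3.70 RPKM in KLG4 (4.42 ± 0.38, a value that became 2.10 with a pseudocount of 1 and 5.66 with one of 0.01), which put the KLG4 tumor cells above the MDMs for this gene. Some plasma cell genes moved with Irf4 in the tumor cell libraries and others did not. Jchain, which joins antibody chains, was at 0.304 and 0.631 RPKM in KL and 101 and 112 RPKM in KLG4. Mzb1 was at 0.121 and 0.658 RPKM in KL and 11.7 and 10.8 RPKM in KLG4. Sdc1 was lower in KLG4, at 68.4 and 67.1 RPKM against 180 and 167 RPKM in KL. Xbp1 overlapped, at 36.6 and 40.3 RPKM in KL and 37.5 and 35.6 RPKM in KLG4.

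In TRMs, 7 of the 9 members were higher in KLG4 replicate 2 than in KLG4 replicate 1, as were 49.5% of all tested genes. The ratio of replicate 2 to replicate 1 was 2.13 for Irf4, 2.48 for Mgl2 and 2.19 for Ccl17, and 0.805 to 1.84 for the other members. Ccl22, a chemokine encoded beside Ccl17, and Pdcd1lg2, encoding PD-L2, were also higher in KLG4 replicate 2, at 13.8 against 6.71 RPKM and 15.1 against 5.04 RPKM. The dendritic cell list summed to 16.9 and 29.0 RPKM in the KL TRM libraries and to 42.0 and 44.2 RPKM in KLG4 replicates 1 and 2, with 10 of 11 markers listed and Cd209a not listed. Of these 10 markers, 6 were higher in KLG4 replicate 2 than in replicate 1, among them Ccr7 (5.68 against 4.04 RPKM), and 4 were lower, among them Itgae (8.36 against 10.5 RPKM). None of the 8 tested dendritic markers passed an adjusted p of 0.05 in TRMs by limma, and 3 had an unadjusted p under 0.05, as did 28.3% of all tested genes.

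Il4ra (chr7:125552120-125579474, plus strand, overlapped by the gene model Gm44876) encodes the chain that interleukin-4 and interleukin-13 receptors share. It was the only member with a different order of genotypes in tumor cells and TRMs. TRM levels of Il4ra were 11.6 and 14.4 RPKM in KL and 25.8 and 33.9 RPKM in KLG4 (1.19 ± 0.22, and 0.81 above the median of all genes). In tumor cells it was at 38.4 and 40.4 RPKM in KL and 32.8 and 32.7 RPKM in KLG4 (-0.27 ± 0.11, or -0.15 after scaling to reads outside mitochondrial genes). It was highest in MDMs, at 55.4 and 49.6 RPKM in KL and 57.5 and 63.3 RPKM in KLG4 (0.20 ± 0.19). Over the 12 libraries Il4ra ran from 11.6 to 63.3 RPKM.

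The levels of the members in tumor cells were set beside those of macrophages. Chil3 in KLG4 tumor cells was at 2.79% of its mean in KLG4 TRMs and 21.5% of that in MDMs. Mrc1 was at 4.66% of TRMs, Ccl24 at 6.78% and Ccl17 at 6.41%. Mgl2 was at 23.8%, Irf4 at 61.5%, Il4ra at 110% and Retnla at 2433%. The 10 macrophage and leukocyte genes set beside them were read in the same way: Marco was at 3.38% of TRMs, Mertk at 3.57%, Fcgr1 at 8.71%, Cd68 at 9.64%, Lyz2 at 12.96%, Csf1r at 19.3%, Adgre1 at 26.0%, Ptprc, which all leukocytes express, at 36.4%, C1qa at 95.1% and Itgam, a gene that neutrophils share, at 172%. Retnla lay above this range, Chil3 below it and the other members within it. The order depended on the reference. Against KLG4 MDMs the 10 genes ran from 8.29% to 117%, with Irf4 (777%), Mgl2 (162%) and Retnla (1856%) above and Ccl24 (6.13%) below. In KL the 10 genes ran from 0.634% to 22.9% of TRMs, with Il4ra (303%) and Retnla (2934%) above, Chil3 (0.452%) below and Ccl24 listed at 0 in tumor cells. Against KL MDMs they ran from 0.673% to 12.6%, with Chil3 (1.88%) inside that range, Ccl24 at 0 and the other 6 members above it.

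**Figure D4:**
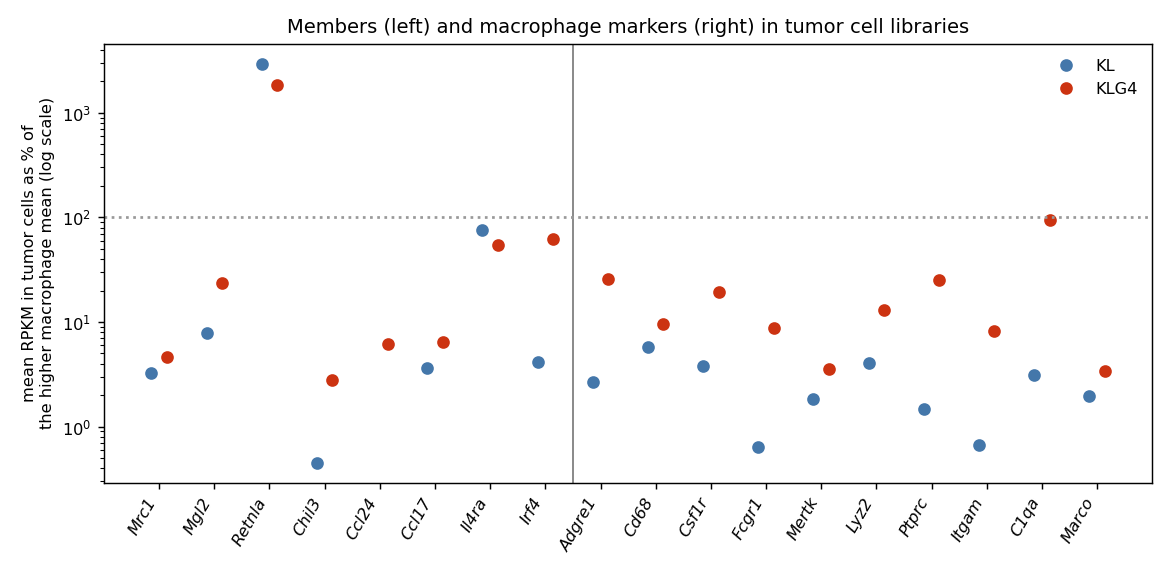
Mean RPKM in tumor cells as a percentage of the higher of the TRM and MDM means (log scale) for the members (left of the line) and macrophage genes (right), in KL (blue) and KLG4 (red). Ccl24 in KL is at 0 and is not drawn. Retnla lies above 100% in both genotypes and Mrc1, at 3.28% in KL and 4.66% in KLG4, among the macrophage genes.

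Genes of immune cells, which the CD45-negative gate should exclude, moved with the members in tumor cells. Ptprc, the gene of CD45 itself, was at 0.834 and 2.06 RPKM in KL and 26.7 and 27.4 RPKM in KLG4 tumor cell libraries. The macrophage list summed to 227 and 289 RPKM in KL and 913 and 950 RPKM in KLG4, with 7 of 7 tested genes called higher and a median difference of 2.72. All 9 tested neutrophil genes (median 3.25), 7 of 9 tested dendritic genes (median 3.22), all 9 tested T cell genes (median 4.54) and all 10 fibroblast genes (median 4.07) rose as well. So did all 8 tested genes of the monocyte-derived macrophage list (median 3.42), 1 of 2 of the eosinophil and mast cell list, and 5 of 7 of the B and plasma cell list, of which 1 fell. The 10 genes of alveolar type 2 cells fell, from a sum of 4263 and 4503 RPKM to 1470 and 1483 RPKM, while 9 of 10 club cell genes rose, with sums of 3514 and 4259 RPKM in KL and 7478 and 7601 RPKM in KLG4. Genes of classical activation moved in the same direction as the members there: 21 of 23 tested rose, beside 20.6% of all tested genes, with a median of 2.73 beside -0.09 for all genes, among them Il1b, the interleukin-1 beta gene (15.7 and 31.2 RPKM against 417 and 410 RPKM, 4.22 ± 0.32, adjusted p = 0.00061). The part of these cells in the values of the members was not tested.

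The same classical genes were read in the macrophages, without a test between the lists. In TRMs none of 23 tested passed an adjusted p of 0.05 by limma and 2 had an unadjusted p under 0.05, against 28.3% of all tested genes. Their median was -0.22, beside 0.38 for all tested genes. The median of the members was 1.40, but these had been named with this contrast known, so nothing is read from the gap. Il1b was at 1207 and 565 RPKM in KL and 604 and 834 RPKM in KLG4 TRMs. In MDMs none of 23 passed either and 2 had an unadjusted p under 0.05, beside 6.74% of all tested genes, with a median of -0.35, while none of the 7 tested members passed there either. One of those 2 was Cxcl9, an interferon-induced chemokine, at 21.5 and 13.5 RPKM in KL and 5.77 and 4.54 RPKM in KLG4 (-1.71 ± 0.32, adjusted p = 0.679).

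The other genes of the interleukin-4 and interleukin-13 pathway, 46 without the members, were tested in the same fits. The genes of the ligands, Il4 and Il13, and of the alarmins Tslp and Il25 were not listed in any table. Il33, an alarmin of epithelial cells, was at 168 and 130 RPKM in KL and 102 and 103 RPKM in KLG4 tumor cells and fell by 0.53 ± 0.15 (adjusted p = 0.0421).

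In TRMs 3 of 33 tested pathway genes rose, beside 1.36% of all tested genes, and none fell, with a median difference of 0.82, or 0.43 above that of all genes. They were Jak2, a Janus kinase (14.5 and 14.7 RPKM against 32.5 and 46.9 RPKM, 1.41 ± 0.23, adjusted p = 0.0485), Cebpb, a transcription factor of myeloid cells (13.7 and 22.4 RPKM against 55.0 and 67.6 RPKM, 1.79 ± 0.27, adjusted p = 0.0475), and Kdm6b, a histone demethylase that STAT6 induces (10.7 and 8.42 RPKM against 27.4 and 23.1 RPKM, 1.39 ± 0.22, adjusted p = 0.0475). None of the 3 was called after quantile or TMM scaling or scaling to reads outside mitochondrial genes, and without KL replicate 2 the number called was 15. Stat6 itself was at 25.2 and 29.8 RPKM in KL and 42.7 and 40.7 RPKM in KLG4 (0.60 ± 0.18, adjusted p = 0.104). Il2rg, the common gamma chain that pairs with Il4ra, differed by 0.84 ± 0.22 (adjusted p = 0.086), and Il13ra1, its other partner, by 0.17 ± 0.21 (adjusted p = 0.624).

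In MDMs none of 29 tested pathway genes was called by limma, with a median of 0.16, and 3 had an unadjusted p under 0.05, beside 6.74% of all tested genes. They were Kdm6b (0.53 ± 0.19), Tgm2, encoding transglutaminase 2 (0.54 ± 0.19), and Ptgs1, encoding cyclooxygenase 1 (0.89 ± 0.24), each with an adjusted p of 0.679 by limma. Without KL replicate 1 the number called was 11. In tumor cells 22 of 35 tested pathway genes rose and 3 fell (Il33, Cdh1 and Ptgs1), beside 20.6% and 19.6% of all tested genes, with a median of 1.63. The gains were led by Chil4 and by Ccl11, the eotaxin-1 gene, which was at 0.404 and 0.764 RPKM in KL and 38.3 and 40.2 RPKM in KLG4 (5.90 ± 0.28, adjusted p = 0.000214). The number called in either direction was 10 without KLG4 replicate 1 and 11 without KLG4 replicate 2. Stat6 (0.49 ± 0.18, adjusted p = 0.0773) and Il13ra1 (0.31 ± 0.18, adjusted p = 0.216) did not pass the test.

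Over the 12 libraries, the gene with the pattern most like a member, by Pearson's r of log2(RPKM + 0.1) among 6241 genes with a mean of at least 5 RPKM in all 3 tables together, was Abcg1 for Chil3 (0.997), Bcap29 for Mrc1 (0.992), Fyn for Irf4 (0.985), Gm25994 for Il4ra (0.976), Ss18 for Retnla (0.960), Filip1l for Mgl2 (0.947) and Rab43 for Ccl24 (0.947). The libraries fall into 3 populations, tables normalized separately, so the values describe levels across populations and carry no p.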

How the data were processed

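Bulk RNA sequencing of tumor cells, TRMs and MDMs was analysed in 2 KL and 2 KLG4 libraries each, and 5 further samples (CD8+ T cells and monocytes) were not used. According to the labels and methods of the study, reads of non-directional poly(A) libraries were trimmed with Trim Galore (0.6.4), aligned with HISAT2 (2.0.5) to GRCm38 and counted with featureCounts (2.0.0), and the authors deposited RPKM values in 1 table per population. The deposited columns of the authors' own fold changes, levels and p-values were not used. Counting ignored strand, so overlapping genes and near copies are uncertain. RPKM is relative to all reads of a library, so a change in mitochondrial reads shifts every other gene.

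Whole reads were recovered from gene length (within 0.05 of a read, for values under 2000 reads), which gave the depth. Because the values are not counts, each table was fitted alone by limma (version 3.58.1 in R 4.3.3), using log2(RPKM + 0.1) and a trended variance, for genes with at least 1 RPKM in 2 of 4 libraries. The scale understates changes of low genes. Tests were two-sided with Benjamini-Hochberg adjustment over the table, and an adjusted p under 0.05 was called. The study's threshold was an unadjusted p under 0.05 and 2-fold. Tables were not tested against each other. Replicates of every group differed by more than sampling noise (chi-square per gene from 3.28 in the KLG4 tumor cells to 131.6 in the KL MDMs).

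The members and gene lists were chosen with earlier results of these data known. Named were all members, Gpx4, and, of each list, genes past the threshold or with the largest and smallest differences (where many passed, a few of them and the count), paralogs, receptors of the chemokines and the most similar gene of each member; library-level values of Il1b, Stat6, Il2rg, Il13ra1, Pdcd1lg2 and of marker genes were chosen after the values were seen. Alternatives were the pseudocount (1 and 0.01), the filter (none, or a mean of 5 RPKM), quantile, TMM and non-mitochondrial scaling, no trend, the replicate number as a block and leaving out each library. Upstream windows were read from RefSeq tables on GRCm38.p6, and gene coordinates from the GENCODE annotation of GRCm38. Start or end differed from the tumor cell table for Retnla and Irf4. A gene of the set, some other genes that these rules select and an allele of the mice are not reported here, and counts and medians leave them out.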

Additional observations from a re-analysis of the deposited data

Results flagged for a closer look

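Il4ra and some genes of the pathway list are given here because the 2 KLG4 libraries were higher than either KL library in one population and lower than either in another. The difference between populations was not tested, since the tables had been normalized separately. Il4ra differed by 1.19 in TRMs, 0.20 in MDMs and -0.27 in tumor cells (KLG4 minus KL, log2). Cdh1, encoding E-cadherin, differed by 0.79 in TRMs and -0.86 in tumor cells. Cish, a feedback inhibitor of STAT signaling, differed by 1.04 in TRMs and -0.21 in tumor cells. Ear2, an eosinophil-associated ribonuclease that alveolar macrophages express, differed by 2.76 in tumor cells, -0.13 in TRMs and -0.96 in MDMs. Myc differed by 1.04 in TRMs and -0.93 in MDMs. Ptgs1 differed by 1.20 in TRMs, 0.89 in MDMs and -1.15 in tumor cells. Ptpn6, encoding the phosphatase SHP-1, differed by 0.72 in tumor cells and -0.21 in TRMs. Rxra, a nuclear receptor, differed by 0.12 in tumor cells and -0.83 in MDMs.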

How the results depend on the processing

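Of the values of single members under the alternatives, 28 moved by more than the spread between replicates (1 SD), and the sign changed for Mrc1 and Ccl17 in MDMs without KL replicate 2. The median of all genes in TRMs was 0.38 and became -0.01, 0.01 and 0.00 after quantile, TMM and non-mitochondrial scaling. At the threshold of the study 85.5% of passing TRM genes were higher in KLG4, against 50.4%, 54.7% and 52.1% under these scalings, and in tumor cells 69.5% against 53.4% after quantile scaling. The cause of the following changes was not tested. The median of the members in tumor cells was 1.87 with a pseudocount of 1, 1.86 with a mean of 5 RPKM and 3.12 after quantile scaling, and from 1.78 to 4.38 with a library left out. In TRMs it was 1.04 and 1.02 under TMM and non-mitochondrial scaling and 1.30 to 1.79 with a library left out, and in MDMs 0.28 to 1.23. A mean of 5 RPKM, which leaves fewer genes to test, gave 3284 called genes in tumor cells in place of 5543, and 1486 in place of 3281 at the threshold of the study. The 198 called TRM genes became 490 and 122 with pseudocounts of 1 and 0.01, 120 without a filter, 557 with a mean of 5 RPKM, 60, 35 and 33 under the 3 scalings, and 12 without a trend. The majority direction of these calls turned under the scalings, from 150 higher and 48 lower to 23 and 37, 11 and 24, and 9 and 24, and in tumor cells 2843 higher and 2700 lower became 2585 and 4130 after quantile scaling, 3152 and 1964 after non-mitochondrial scaling and 1311 and 1973 with a mean of 5 RPKM. At the threshold of the study the 1546 TRM genes became 932 (pseudocount 1), 665 (mean of 5 RPKM), 893, 903 and 941 (the 3 scalings). The 3 called pathway genes in TRMs became 0 with a pseudocount of 0.01, under each of the 3 scalings and without a trend, and 1 without a filter. In MDMs the 430 genes at the threshold of the study became 279 with a pseudocount of 1, 688 without a filter and 158 with a mean of 5 RPKM. With the replicate number as a block the called TRM genes were 470 and the called TRM pathway genes 5. Deviations of same-numbered libraries of the KL and KLG4 groups correlated at 0.02 in tumor cells, -0.06 in TRMs and 0.05 in MDMs. Whether same-numbered libraries shared a batch was not tested. With a library left out, called genes ranged from 1843 to 7243 in tumor cells, 212 to 2631 in TRMs and 0 to 2592 in MDMs, genes at the threshold of the study from 2176 to 3566, 1090 to 2654 and 178 to 1912, and called pathway genes from 10 to 28, 3 to 15 and 0 to 11. The 2 libraries per group limit every test.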

Other observations

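Family members of the 9 genes gave further differences. Of 17 tested in tumor cells, 13 rose and Irf3 fell, beside 20.6% and 19.6% of all tested genes. Retnlg, a resistin-like gene of neutrophils, was at 2.70 and 4.46 RPKM in KL and 72.3 and 71.9 RPKM in KLG4 tumor cells (4.34 ± 0.25, adjusted p = 0.000329), and at 172 to 355 RPKM in MDMs. In TRMs 1 of 13 rose, beside 1.36% of all tested genes: Il7r, a cytokine receptor chain of the same superfamily as Il4ra, was at 2.87 and 2.42 RPKM in KL and 9.48 and 7.48 RPKM in KLG4 (1.64 ± 0.26, adjusted p = 0.0475). Chil1, a chitinase-like gene related to Chil3, was at 4.42 and 3.16 RPKM in KL and 1.12 and 1.76 RPKM in KLG4 TRMs (-1.35 ± 0.37, adjusted p = 0.0937). In MDMs none of 11 passed by limma, and 2 had an unadjusted p under 0.05, beside 6.74% of all tested genes.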
